A study of Mus musculus with 1479 samples.

Results

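Heat shock chaperones were followed in single mesenchymal cells of the mouse urinary bladder. The genes, chosen by name, were Hspa1a, Hspa1b, Dnajb1, Hsph1, Hspb1, Hspa8, Hsp90aa1, Hspe1, Hspd1 and Bag3, that is 10 of the 46517 gene rows of the count table. The samples were 1479 cells of male mice aged 10-20 weeks, each cell a Smart-seq2 library, a full-length cDNA method without molecular identifiers. All lines were kept on C57BL6. PdgfrbGFP carried an eGFP transgene under Pdgfrb sequences and gave 54.8% of the cells, Cspg4dsRED a DsRed transgene for Cspg4 and 13.7%, PdgfraGFP a nuclear GFP knocked into Pdgfra and 9.94%, Acta2GFP a GFP transgene for Acta2 and 8.72%, and C57BL6 mice without a reporter gave 12.8%. Bladders of all lines were digested warm with enzymes, for Acta2GFP with elastase added. CD31-negative cells positive for a reporter, or for an antibody to PDGFR alpha or PDGFR beta, were sorted into plates. C57BL6 cells could be selected by antibody only, so the selection differed between lines. Cells that expressed neither Pdgfra nor Pdgfrb were removed later. The labels name the plate, the line and a cluster from 1 to 11 for each cell but no animal, so lines served as units, and p-values measure only the spread between lines, which may be technical.

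Heat shock proteins are chaperones that hold, refold or hand over unfolded proteins. HSP70 proteins bind exposed hydrophobic stretches in an ATP-driven cycle that is started by J-domain proteins and reset by nucleotide exchange factors. HSP90 takes over part of their clients, small heat shock proteins hold unfolded chains without ATP, and HSP60 with HSP10 forms the folding chamber of mitochondria. Stress-inducible members are switched on by heat shock factor 1, which binds repeats of the unit nGAAn, called heat shock elements. Warm enzymatic digestion of tissue is known to raise stress genes in single cells, as is true of immediate-early genes such as Fos. All cells here went through a digestion, so no cells without it were at hand for comparison.

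Among the genes, Hspa1a and Hspa1b encode the 2 stress-inducible HSP70 proteins, and Hspa8 encodes the constitutive HSP70. Dnajb1 is an inducible J-domain partner, Hsph1 a large HSP110-type exchange factor and Bag3 an HSP70 co-chaperone that binds small heat shock proteins. Hsp90aa1 is the inducible cytosolic HSP90, Hspb1 the small protein HSP27 (HSP25 in the mouse), Hspd1 HSP60 and Hspe1 HSP10. In GRCm38, Hspa1b lay on chromosome 17 at 34956436-34959238 and Hspa1a at 34969190-34972156, both on the minus strand and 9951 bases apart. Hspd1 at 55077835-55088243 and Hspe1 at 55088132-55091307 on chromosome 1 stood head to head, and their first exons overlapped over 7.60% of the exon bases of Hspe1. Dnajb1 lay on chromosome 8, Hsph1 and Hspb1 on chromosome 5, Hspa8 on chromosome 9, Hsp90aa1 on chromosome 12 and Bag3 on chromosome 7.

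RefSeq promoters (GRCm38.p6) were found for 8 of the 10 genes, and the 250 bases before the start were searched for a pair of facing units, GAANNTTC or TTCNNGAA, and for the 3-unit forms GAANNTTCNNGAA and TTCNNGAANNTTC. Both 2-unit words read the same on either strand, a 3-unit match contains 2-unit matches, and matches may overlap. The 8 genes had 11 promoter entries, of which 7 held a 2-unit word, against 12.8% of all 32851 entries, and 2 a 3-unit word, those of Hspe1 and Hspd1 at one common site, against 0.466% of all. No match was found in these windows of Dnajb1 and Bag3, which says only that these letters are not in them. Promoters are shown for the HSP70 pair, which have nearly the same upstream sequence, for Hspe1, with the longest run of units, and for Hspb1, which is described for cluster 10 below. Capitals mark the motif, and each sequence ends at the base before the transcript start.
Hspa1a, chr17:34972157-34972406, minus strand: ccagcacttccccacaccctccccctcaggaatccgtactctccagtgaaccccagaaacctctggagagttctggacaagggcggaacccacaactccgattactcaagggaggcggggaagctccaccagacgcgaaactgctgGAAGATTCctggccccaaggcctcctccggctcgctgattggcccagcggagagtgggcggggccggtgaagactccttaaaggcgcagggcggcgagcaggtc
Hspa1b, chr17:34959239-34959488, minus strand: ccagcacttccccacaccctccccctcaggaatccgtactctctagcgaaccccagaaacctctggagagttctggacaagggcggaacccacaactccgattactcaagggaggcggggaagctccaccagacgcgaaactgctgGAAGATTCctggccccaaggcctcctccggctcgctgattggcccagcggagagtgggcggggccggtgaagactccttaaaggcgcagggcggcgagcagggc
Hspe1, chr1:55087898-55088147, plus strand: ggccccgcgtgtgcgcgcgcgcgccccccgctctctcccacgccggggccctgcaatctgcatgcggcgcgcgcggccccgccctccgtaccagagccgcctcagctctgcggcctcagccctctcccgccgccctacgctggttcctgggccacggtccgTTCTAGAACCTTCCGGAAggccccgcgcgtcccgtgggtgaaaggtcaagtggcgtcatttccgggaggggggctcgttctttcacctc
Hspb1, chr5:135887669-135887918, plus strand: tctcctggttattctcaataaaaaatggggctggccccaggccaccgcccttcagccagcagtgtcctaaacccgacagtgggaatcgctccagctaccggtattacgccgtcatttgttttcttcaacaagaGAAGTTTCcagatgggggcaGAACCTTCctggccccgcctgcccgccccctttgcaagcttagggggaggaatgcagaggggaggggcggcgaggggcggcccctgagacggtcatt
The Hspa1a and Hspa1b sequences were identical at 98.8% of the 250 bases, and both held GAANNTTC from -104 to -97. Hspe1 had an unbroken run of units from -89 to -72, which lies at the same place in the genome as the run upstream of the second Hspd1 start. Hspb1 had 2 GAANNTTC words, the upper starting at -117 and the lower ending at -90.

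Some of these genes share sequence with others, which limits what their counts can separate. Of the 50-base words of Hspa1a, 33.7% occurred in no other gene, and of those of Hspa1b 37.7%, with 1716 words common to both. Hspa1a further shared 564 of its 2967 exon bases with Gm20481 on the other strand, and no strand setting for the counting is given in the sources used here. The table held 258770 Hspa1a reads and 12920 Hspa1b reads, 20.0 to 1. How reads of the common stretch were divided was not tested, so the difference in level between these copies is uncertain. The share of words found in no other gene was 49.9% for Hspb1, 52.5% for Hsp90aa1, 57.9% for Hspd1, 60.6% for Hspa8 and 77.2% for Hspe1, and the sharing genes included Hsp25-ps1, Hspd1-ps3 and Hspe1-ps2, pseudogenes by their names. For Dnajb1 the share was 99.6%, and every word of Hsph1 and Bag3 was found in no other gene.

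Cells had 50276 to 1446059 reads, with a median of 214893, and the median per plate and line ran from 109965 (PdgfrbGFP on plate bladder_515s) to 384099 (PdgfrbGFP on plate bladder_881s). To compare cells at equal depth, each was thinned at random to 50000 endogenous reads, which kept 1473 cells and dropped 6 shallower ones. Levels below are mean thinned reads per cell. All 10 mural markers, such as Myh11 and Notch3, were called higher in cluster 10 and all 10 fibroblast markers, such as Pdgfra and Cd34, were called lower there, so cluster 10 was mural-like and clusters 1-9 and 11 are called fibroblast clusters. Some of these were less clear by the same markers. In cluster 5 Acta2 (log2 fold change 3.13, adjusted p = 0.0044), Col1a1 and Col1a2 were called higher than in the other fibroblast clusters. Cd34, Fbln1, Fbln2 and Lum were called lower there. In cluster 4 Cspg4 was called higher and Fbln1 and Loxl1 lower. In cluster 7 Col1a2 and Lum were called lower, at -0.53 and -0.79 beside a median of -0.41 for all genes, and no mural marker was called. Cells with fewer transcripts of a gene and a smaller share of its cells in a sum cannot be told apart in the sums tested below.

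Together the 10 genes took 143.08 ± 68.001 (SD, n = 5 lines) of 50000 reads. Hspa1a gave 34.1% of their reads, Hspa8 15.9%, Dnajb1 13.5%, Bag3 10.9% and Hsp90aa1 10.1%. The mean Hspa1a level was 97.6 in Acta2GFP, 77.3 in Cspg4dsRED, 33.007 in PdgfrbGFP, 28.2 in PdgfraGFP and 26.1 in C57BL6 cells. Acta2GFP and Cspg4dsRED thus stood above the other lines over all cells, but 65 Cspg4dsRED cells were in cluster 10. In its fibroblast clusters Cspg4dsRED was at 43.5 on plate bladder_352s and 34.9 on plate bladder_689s. PdgfrbGFP was there at 54.6 on plate bladder_515s, 26.2 on plate bladder_074s and 16.2 on plate bladder_881s. Acta2GFP, found on plate bladder_515s only, was at 96.8 in fibroblast clusters. Per kilobase of exon the level of Hspa1a was 17.7 ± 11.1 and that of Hspb1 8.88 ± 4.84 (SD, n = 5 lines), while Dnajb1, Bag3, Hspa8, Hsp90aa1, Hspe1 and Hspd1 lay between 6.34 and 1.24. The lowest per kilobase were Hspa1b, at 0.722 ± 0.249, and Hsph1, at 0.322 ± 0.214. From Hspb1 down to Hspe1, each gene differed from the next in this order by less than the SD over lines.

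The lines differed in unequal measure from gene to gene. The highest line was 5.80 times the lowest for Dnajb1, 4.63 times for Hsph1, 4.49 times for Hspb1 and 3.74 times for Hspa1a. For Bag3 it was 1.53 times, for the mitochondrial pair Hspd1 and Hspe1 1.69 and 1.70 times. Dnajb1 averaged 48.008 reads in Acta2GFP and 18.8 in Cspg4dsRED, against 14.7 in PdgfrbGFP, 11.8 in C57BL6 and 8.27 in PdgfraGFP. Hsph1 averaged 5.01 reads in Acta2GFP and between 1.08 and 2.16 in the other lines. Each line is 1 sample here, so these are side-by-side values, and single lines that stood apart from the spread of the others are named at the end.

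The remaining genes differed in which line was highest. Acta2GFP was highest for Hspa8 (30.1 reads), Hsp90aa1 (23.7) and Bag3 (18.7), and PdgfraGFP lowest for these, at 9.79, 8.46 and 12.2. Hspa8 and Hsp90aa1 thus had the same line at either end as Dnajb1 and Hsph1. Hspb1, the small heat shock protein, was highest in Cspg4dsRED, at 17.1 reads, followed by 9.79 in Acta2GFP, 8.38 in C57BL6, 6.62 in PdgfrbGFP and 3.82 in PdgfraGFP. Cspg4dsRED was also the line with most mural-like cells, 65 of its cells being in cluster 10, and in its fibroblast clusters Hspb1 was at 8.19. Hspe1 was highest in C57BL6 (5.61) and lowest in PdgfraGFP (3.31), and Hspd1 highest in Acta2GFP (4.26) and lowest in C57BL6 (2.52). The subunits of the mitochondrial chamber therefore did not share their order of lines.

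Plates give a second view, since PdgfrbGFP cells were on 3 plates and plate bladder_515s held both PdgfrbGFP and Acta2GFP cells. Over the 8 plate and line groups Hspa1a ran from 20.2 (PdgfrbGFP on plate bladder_881s) over a median of 38.4 to 97.6 (Acta2GFP on plate bladder_515s). PdgfrbGFP cells had 26.7 Hspa1a reads on plate bladder_074s, 64.3 on plate bladder_515s and 20.2 on plate bladder_881s. The level on plate bladder_515s was higher than on plate bladder_074s in 7 of 7 clusters with at least 3 cells on both, and higher than on plate bladder_881s in 7 of 7. The level of one line thus differed between plates in cells of the same clusters, and plate, sort and mouse cannot be told apart. The mitochondrial pair went apart between plates, since on plate bladder_881s the Hspe1 level was higher than on plate bladder_074s in 8 of 8 clusters and the Hspd1 level lower in 8 of 8.

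**Figure D1:**
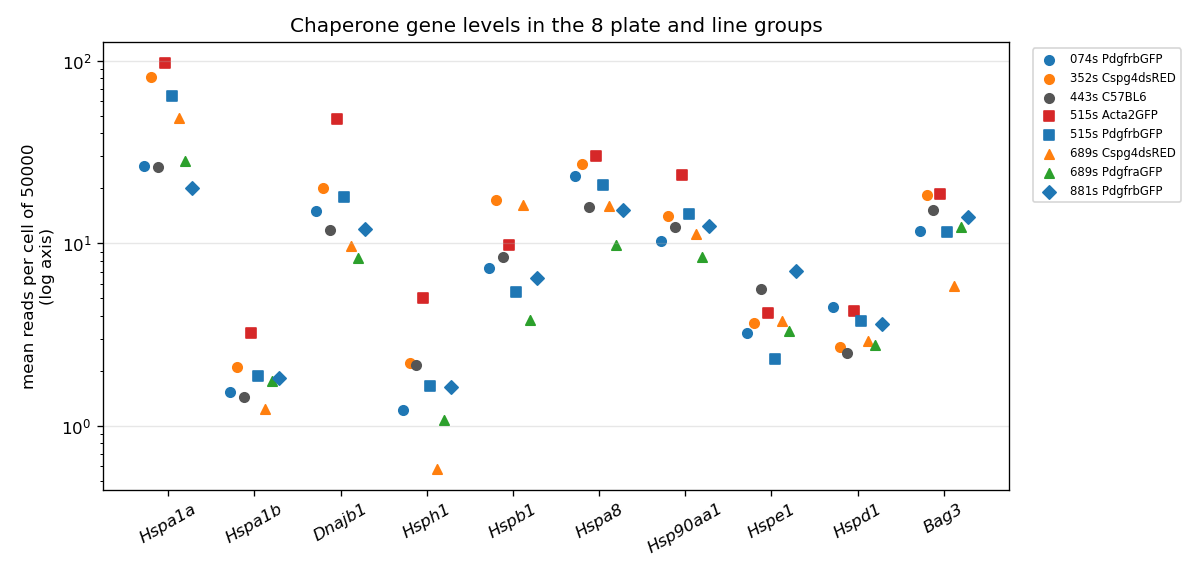
Mean reads per cell of 50000 (log axis) for each chaperone gene, 1 point for each of the 8 plate and line groups, coloured by line and with marker shapes for plates that hold 2 lines or repeat a line. Acta2GFP cells on plate bladder_515s were highest for Hspa1a (97.6) and Dnajb1 (48.008), while Hspd1 stayed between 2.52 and 4.49 in all groups.

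Within plate bladder_515s, Acta2GFP cells had more Hspa1a reads than PdgfrbGFP cells in 6 of 7 clusters, more Dnajb1 reads in 6 of 7, and more Hsph1 and Bag3 reads in 7 of 7. In cluster 3, the cluster with most cells of both, Hspa1a averaged 72.5 reads in 37 Acta2GFP cells and 55.6 in 76 PdgfrbGFP cells. In cluster 8 Dnajb1 averaged 61.3 reads in 11 Acta2GFP and 9.54 in 35 PdgfrbGFP cells. Cluster 10 was the exception, with 105.8 Hspa1a reads in 12 Acta2GFP and 138.2 in 21 PdgfrbGFP cells. Enzyme mix differed along with the reporter between these lines, and the part of either was not tested.

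Depth moved with plate. Median reads were 109965 to 146463 in the Acta2GFP, Cspg4dsRED and PdgfraGFP groups and in PdgfrbGFP cells of plate bladder_515s, and 267313 to 384099 in the others. Among 457 cells of 100000 to under 200000 endogenous reads, a range chosen after the data were seen, Hspa1a averaged 97.5 in Acta2GFP and 61.4 in PdgfrbGFP cells of plate bladder_515s and 71.04 in Cspg4dsRED cells of plate bladder_352s. It averaged 31.7 in PdgfrbGFP cells of plate bladder_074s, 24.4 in PdgfraGFP cells and 15.9 in C57BL6 cells. The PdgfrbGFP plate bladder_881s had only 5 such cells. Within groups, the ratio of the scaled Hspa1a level in the deep cells to that in the shallow cells, after a split into 3 equal parts by depth, ran from 0.504 to 1.29, with a median of 0.851.

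Over clusters, Hspa1a was highest in mural-like cluster 10, at 89.9 ± 61.4 (SD, n = 4 lines), and in cluster 11, at 81.9 ± 32.014 (n = 3). It was lowest in cluster 5, at 9.59 ± 6.73 (n = 4), and the other clusters had means from 24.1 to 51.4. The clusters hold different lines, and clusters 4, 5 and 9 had no value from Acta2GFP, the line with the highest Hspa1a level. Without that line, an alternative chosen after the data were seen, the mean was 13.7 in place of 24.1 in cluster 2, 30.4 in place of 50.5 in cluster 8 and 28.8 in place of 47.1 in cluster 1, and cluster 5 was still lowest. Cluster 10 also ranked first for Hspb1, Hspa8, Hsp90aa1 and Hspd1, and cluster 11 for Dnajb1, Hsph1 and Bag3. Without Acta2GFP cluster 11 was at 16.7 for Dnajb1, below clusters 10 (28.98), 4 (26.95) and 1 (17.5). For Hspd1 cluster 10 was then below cluster 3 (3.92 against 4.20). The Hsph1 rank of cluster 11 rested on 3 C57BL6 cells with a mean of 24.3, beside 5.05 in Acta2GFP and 2.60 in PdgfrbGFP cells. Hspb1 in cluster 4 was uneven, with a Cspg4dsRED value near those of cluster 10 and a PdgfrbGFP value near those of cluster 5. Cluster 5 ranked last for Dnajb1, Hspb1, Hspa8 and Hsp90aa1 as well. Without Acta2GFP it was still last for Dnajb1 and Hspa8. Cluster 7 was then lower for Hspb1 (4.45 against 4.60) and cluster 8 for Hsp90aa1 (8.50 against 8.74). Of the 10 steps between neighbouring clusters in the Hspa1a order, 1 was larger than the pooled SD over lines, that from cluster 11 to cluster 9. For Hspa1b, Dnajb1, Hsph1, Hspb1, Hspe1 and Hspd1, 0 of 10 steps were.

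**Figure D2:**
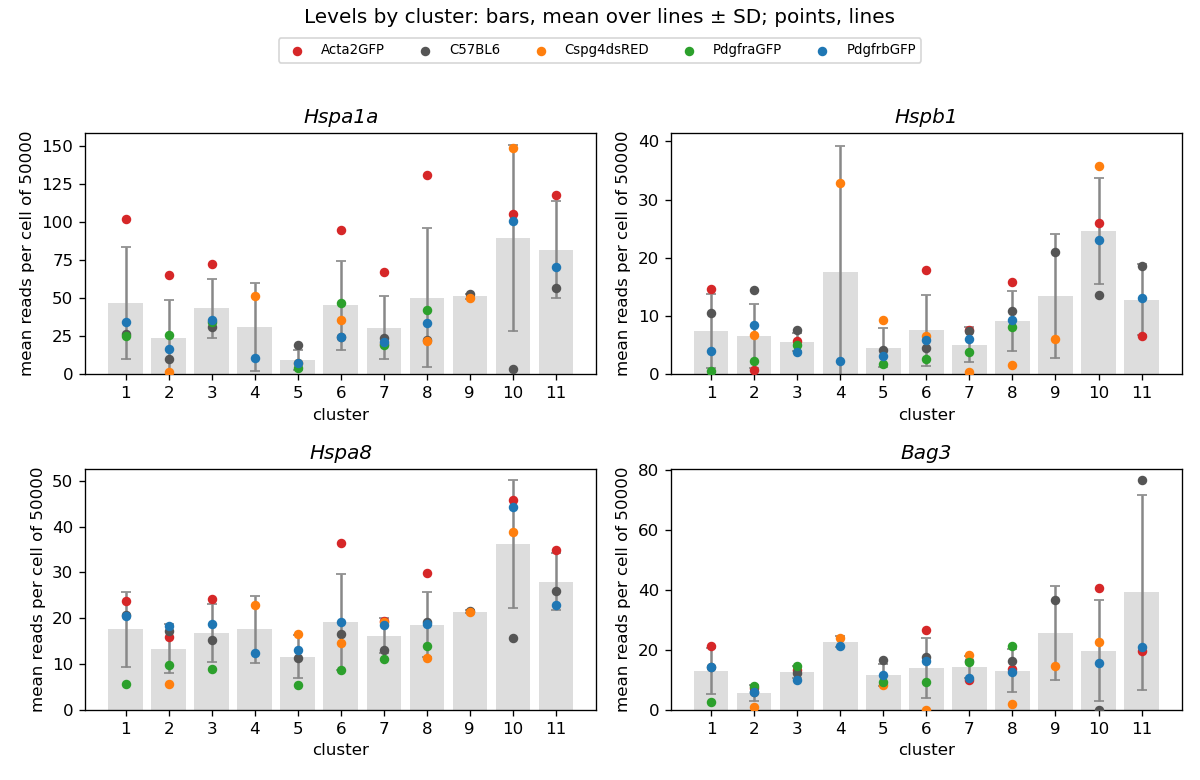
Mean reads per cell of 50000 in each cluster for Hspa1a, Hspb1, Hspa8 and Bag3. Bars are means over lines with at least 3 cells, error bars the SD over lines (n = 2 to 5), and points the lines. Hspa1a was highest in clusters 10 (89.9) and 11 (81.9) and lowest in cluster 5 (9.59), and the Bag3 bar of cluster 11 rested on a C57BL6 value of 76.7 from 3 cells.

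The comparison of cluster 10 with all fibroblast clusters asked which chaperones set mural-like cells apart. Hspb1 stood out by level. It averaged 26.1 reads in 12 cluster 10 cells of Acta2GFP against 8.12 in the fibroblast clusters of that line, 35.8 in 65 cells of Cspg4dsRED against 8.19, 23.1 in 45 cells of PdgfrbGFP against 5.65, and 13.7 in 3 cells of C57BL6 against 8.30. All 4 cluster 10 values lay above all 4 fibroblast values, and among the 7 plate and line groups with both classes the cluster 10 value was higher in 7. Over lines the levels were 24.7 ± 9.10 against 7.56 ± 1.28 (SD, n = 4), and 75.2% of cluster 10 cells had at least 10 thinned Hspb1 reads (exact Clopper-Pearson 95% interval 66.7 to 82.5%).

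Summed per line and tested with edgeR over all genes, the log2 fold change of Hspb1 was 1.498 ± 0.56 (SE) with an adjusted p of 0.110, so it was not called. In this fit 0 of 10 genes were called at an adjusted p under 0.05, where 6.38% of 16092 genes were. At an unadjusted p under 0.05 the count was 1 (Hspb1), against 22.1% of all genes. DESeq2 called 0 of 10 (18.6% of all genes) and limma-voom 2, Hspb1 and Hspa1a (10.6%). Hspb1 was the 1 gene of 10 higher in cluster 10 in every line (6.90% of all genes) and the 1 without overlap (4.09%). Without the C57BL6 line, which had 3 cells in cluster 10, its adjusted p was 0.017 and its log2 fold change 1.79. Over the lines left out in turn, 0 to 1 of the 10 genes were called.

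The fitted fold changes stand on a scale on which the median of all genes was -0.93 in cluster 10, whose cells had a median of 3188 genes detected. Its median mitochondrial share was 1.84% and its ERCC share 1.71%, within the 1.11 to 2.36% and 0.961 to 1.92% of the fibroblast clusters, and their part in the results was not tested. On the scale as fitted 5 of the chaperone genes were higher and 5 lower, with a median of 0.05. Relative to the median gene 10 of 10 were higher, as they also were in clusters 1 and 11, and 8 or 9 were in clusters 3, 4, 6 and 8. Setting the median gene at 0 brought 2 calls, beside 5.25% of all genes, Hspb1 at a log2 fold change of 2.43 (adjusted p = 0.0066) and Hsp90aa1 at 1.95 (adjusted p = 0.023).

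Hsp90aa1 averaged 40 reads in cluster 10 cells of C57BL6, 32.8 in PdgfrbGFP, 22.1 in Cspg4dsRED and 20.3 in Acta2GFP, against 11.8, 10.7, 9.73 and 24.1 in the fibroblast clusters of the same lines. It was thus higher in 3 of 4 lines, C57BL6 with only 3 cluster 10 cells among them, with Acta2GFP the exception. Its log2 fold change was 1.013 ± 0.52 (adjusted p = 0.268). Hspa8 averaged 45.8, 44.3, 38.8 and 15.7 reads in cluster 10 cells of Acta2GFP, PdgfrbGFP, Cspg4dsRED and C57BL6, against 28.5, 18.7, 19.4 and 15.7, with a log2 fold change of 0.47 ± 0.46 (adjusted p = 0.642).

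Hspa1a, the gene with most reads, differed widely between the cluster 10 cells of the lines. It averaged 148.9 reads in Cspg4dsRED, 105.8 in Acta2GFP, 101.04 in PdgfrbGFP and 3.67 in C57BL6, against 42.9, 96.8, 28.99 and 26.5 in the fibroblast clusters. Cspg4dsRED and PdgfrbGFP cells had over 3 times the fibroblast level, Acta2GFP cells about the same, and the 3 C57BL6 cells less. By plate and line it was higher in cluster 10 in 6 of 7 groups. The log2 fold change was 0.18 ± 0.65 (adjusted p = 0.924). Leaving out Cspg4dsRED or PdgfrbGFP turned it to -0.42 and -0.56, and leaving out C57BL6 gave 1.07. The summed level of 17 immediate-early genes was also higher in cluster 10 in 6 of 7 plate and line groups. The fibroblast clusters compared here leave out cluster 5, unlike those for Hspa1a. The sum was 2388.2 against 818.6 reads in Acta2GFP and 753.3 against 649.02 in C57BL6. On plate bladder_352s it was 2207 against 921.2 in Cspg4dsRED cells, and on plate bladder_689s 1018.1 against 1049.2. In PdgfrbGFP cells it was 1455.8, 2520.7 and 1233.8 against 762.4, 594.7 and 722.1 on plates bladder_074s, bladder_515s and bladder_881s. Their part in the Hspa1a result was not tested.

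**Figure D3:**
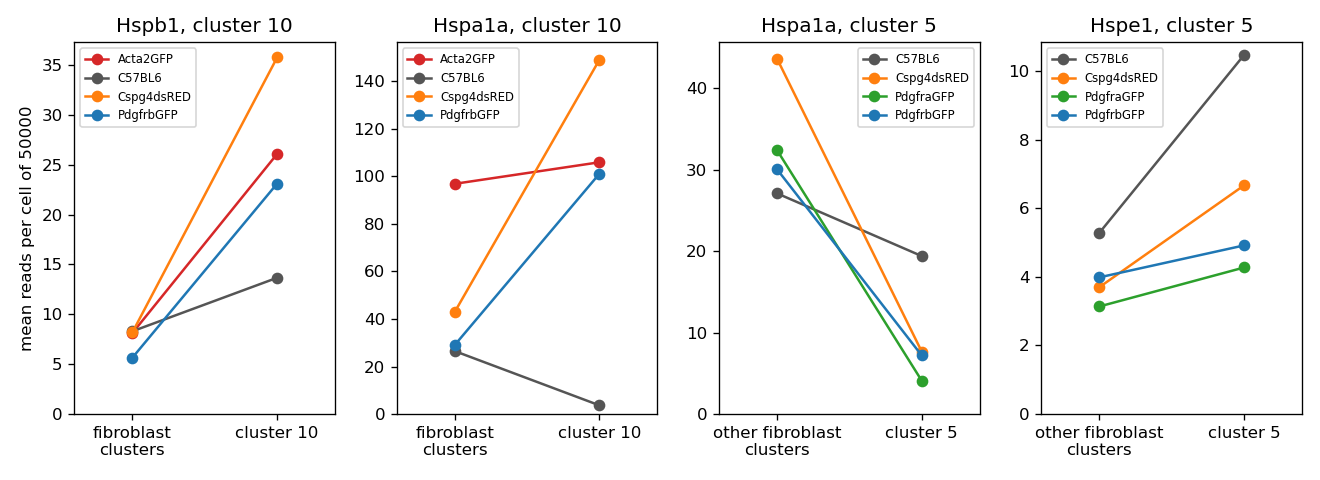
Mean reads per cell of 50000 in the cluster named and in the fibroblast clusters compared with it, 1 line of the plot for each mouse line. Hspb1 was higher in cluster 10 in 4 of 4 lines, Hspa1a in 3 of 4, and in cluster 5 Hspa1a was lower and Hspe1 higher in 4 of 4.

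Cluster 5 was compared with the other fibroblast clusters. Hspa1a averaged 19.4 reads in 15 cluster 5 cells of C57BL6 against 27.1 in the other fibroblast clusters, 7.67 in 3 cells of Cspg4dsRED against 43.7, 4.09 in 22 cells of PdgfraGFP against 32.4, and 7.19 in 36 cells of PdgfrbGFP against 30.1. The 4 cluster 5 values lay below the 4 others without overlap, where C57BL6 had the smallest gap. On the 3 PdgfrbGFP plates cluster 5 cells averaged 7.43, 9.40 and 6.67 reads against 26.6, 56.026 and 17.3. Only 19 of 76 cluster 5 cells had at least 10 thinned Hspa1a reads (exact Clopper-Pearson 95% interval of the share 15.8 to 36.3%), compared with 40.6 to 92.2% of cells in the other fibroblast clusters.

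The edgeR log2 fold change of Hspa1a in cluster 5 was -2.16 ± 0.48 (SE) with an adjusted p of 0.074. In this fit 0 of 10 chaperone genes were called, with 0.935% of 16145 genes called in all. At an unadjusted p under 0.05 there were 2, Hspa1a and Dnajb1, both lower (13.2% of all genes), and DESeq2 called 1, Hspa1a (8.83%), and limma-voom 0 (3.38%). Without C57BL6, the line with the smallest gap, the adjusted p of Hspa1a was 7.5e-05 and its log2 fold change -2.66. Over the lines left out in turn, 0 to 1 of the 10 genes were called. With depth-matched cells, 17 of cluster 5 in PdgfraGFP and PdgfrbGFP, the values of Hspa1a were 3.3e-06 and -3.18 (2.11% of all genes called). That fit had 2 lines and a depth range chosen after the data were seen, so its p says little about repeats over lines. With the median gene at 0 the values of Hspa1a were 0.258 and -1.40. Hspa1a was 1 gene of 10 lower without overlap of the lines (9.15% of all genes). The median of all genes stood at -0.77 in this fit.

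Lower in every line were 4 of the 10 genes, Hspa1a, Dnajb1, Hspa8 and Hsp90aa1, and 18.1% of all genes. Dnajb1 averaged 9.47, 0.333, 1.77 and 6.56 reads in cluster 5 cells of C57BL6, Cspg4dsRED, PdgfraGFP and PdgfrbGFP, against 12.2, 11.2, 9.42 and 12.8, with a log2 fold change of -1.87 ± 0.80 (adjusted p = 0.335). Hspa8 averaged 11.4, 16.7, 5.55 and 13.1 against 16.1, 19.5, 10.5 and 18.999 in the same lines (log2 fold change -0.76 ± 0.38, adjusted p = 0.451), close to the shift of the median gene. Hspe1 went the other way and was the 1 gene of 10 higher in every line (3.97% of all genes). It averaged 10.5, 6.67, 4.27 and 4.92 reads against 5.28, 3.70, 3.14 and 3.98, but by plate it was higher in 2 of 5 groups. Immediate-early genes were also lower, with a summed level of at most 361.9 reads over lines in cluster 5 against 649 to 930 in the other fibroblast clusters. The summed level of 10 mural markers was 63.9 reads there (47.2 to 75.9 over lines) against 11.6 (6.57 to 18.4). Only 1 of these 10, Acta2, was called higher, and their median log2 fold change was 0.59. The part of either was not tested.

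Each of the 9 fibroblast clusters other than cluster 5 was set against the remaining ones. Of 90 pairs of gene and cluster 0 were called by edgeR, where 0.165% of all 138516 pairs were. At an unadjusted p under 0.05 there were 9 pairs (8.78% of all), of which Dnajb1 made up 5, with higher levels in clusters 1, 4 and 11 and lower ones in clusters 2 and 3. DESeq2 called 1 pair, Hsph1 in cluster 2 (3.78% of all), and limma-voom called 3, Dnajb1 and Hspa1a in cluster 1 and Hspa1a in cluster 7 (1.01%). With the median gene at 0 the count was 11 of 90, beside 1.27% of all pairs.

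Cluster 7 had the lowest adjusted p among these fits, 0.095 for Hspa1a with a log2 fold change of -0.61 ± 0.12 (SE). Its Hspa1a level was 67.7 in Acta2GFP, 24.1 in C57BL6, 21.5 in PdgfrbGFP, 20.3 in Cspg4dsRED and 19.6 in PdgfraGFP, against 99.2, 27.9, 32.2, 45.6 and 36.6 in the other clusters. By plate and line it was lower in 6 of 7 groups. In the same cluster 6 immediate-early genes were called lower, and their part was not tested. In cluster 11, which held 43 Acta2GFP cells among its 51, Hspa1a averaged 118.05, 57 and 70.8 reads in Acta2GFP, C57BL6 and PdgfrbGFP against 84.4, 26.6 and 29.8 (log2 fold change 0.84 ± 0.27, adjusted p = 0.775). Bag3 averaged 19.9, 76.7 and 21.2 against 14.5, 14.3 and 12.1 there (1.36 ± 0.43, adjusted p = 0.775), and Dnajb1 77.8, 6.67 and 26.8 against 30.2, 12.3 and 12.7 (0.86 ± 0.40, adjusted p = 0.840). The C57BL6 values of cluster 11 come from 3 cells. With the median gene at 0 all 3 genes were called, with Hspa8 as the fourth, beside 2.24% of all genes in that fit. The median of all genes stood at -1.16 in cluster 11, and this centring raises every gene by about that amount.

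Most of the spread lay between cells of the same plate, line and cluster. On a log2(thinned reads + 1) scale, plate, line and cluster together took 30.3% of the variance of Hspa1a, 24.9% of that of Hspa8 and 23.8% of that of Hspb1, and 10.1 to 16.6% for the others, against a median of 8.52% over the 7569 genes with a mean of at least 1 thinned read. Clusters alone took 18.5% for Hspa1a and 14.8% for Hspb1, and plate and line alone 15.6% for Hspa8 and 14.7% for Hspa1a. The clusters were made from the same cells, so these shares are descriptions.

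Hspa8, the constitutive HSP70, was the most evenly spread gene, with quartiles of 9, 16 and 26 thinned reads and at least 1 read in 95.9% of cells (exact Clopper-Pearson 95% interval 94.8 to 96.9%). Hspa1a was found in 93.5% of cells (92.1 to 94.7%) but with quartiles of 5, 21 and 55 and a highest cell at 472. Dnajb1 and Hsph1 were more patchy. Dnajb1 had a median of 2 and a highest cell at 637 reads, and the top 10% of cells held 62.3% of its reads. For Hsph1, found in 25.3% of cells, the top 10% held 82.2%, compared with 37.2% for Hsp90aa1. Before thinning Hsph1 had a read in 38.2% and Hspa1a in 98.2% of cells. Intervals cover counting error only, and reads without molecular identifiers are not independent molecules.

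Cells high in Hspa1a were often high in its partners. Spearman's rho over the cells of a plate and line, averaged over the 8 groups, was 0.454 between Hspa1a and Hspa1b, 0.385 with Hsp90aa1, 0.378 with Hspa8 and 0.294 with Dnajb1, and each was above 0 in 8 of 8 groups. Hspa1a and Hspa1b share sequence, and how reads of it were divided was not tested, so their value may not measure the separate genes. At the other end stood the mitochondrial pair and Bag3, with a mean rho of 0.0375 between Hspa1a and Hspe1 and of 0.00715 between Hspd1 and Bag3. Of the 45 pairs 4 had a mean rho of at least 0.3 and 15 one under 0.1. Hspd1 and Hspe1, which share their upstream region, stood at 0.10. Cells share plate, depth and base composition, and no test was made.

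**Figure D4:**
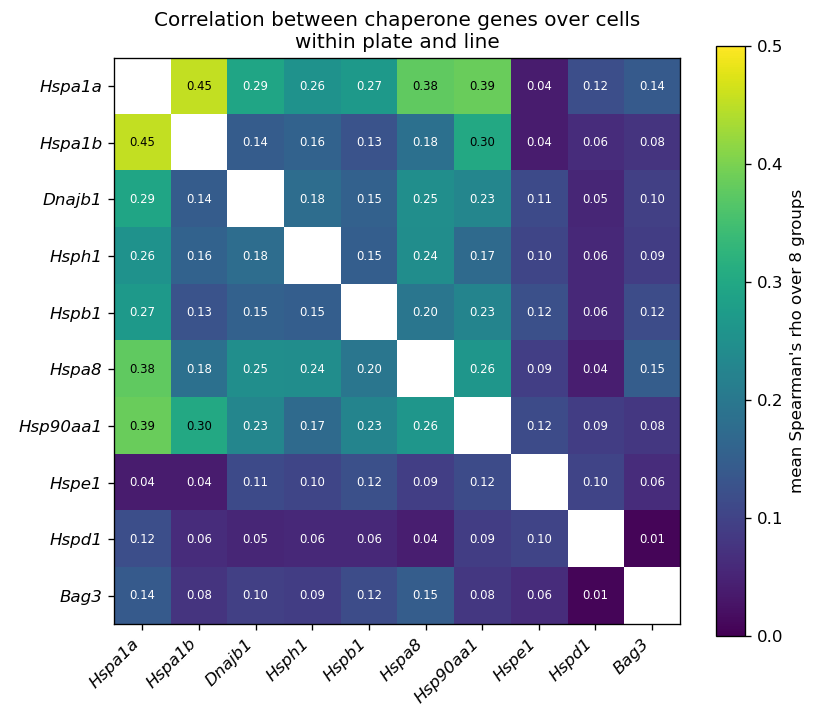
Mean over 8 plate and line groups of Spearman's rho between chaperone genes across thinned cells, from 0 (dark) to 0.5 (light). Hspa1a, Hspa1b, Hsp90aa1 and Hspa8 formed the 4 pairs with the highest values, 0.30 to 0.45, while the rows of Hspe1, Hspd1 and Bag3 were at 0.15 or lower.

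Among 6029 genes with a read in at least 20% of thinned cells, the non-member most like the sum of Hspa1a and Hspa1b was Gm20481, with a mean rho of 0.944 over the 8 groups, the gene model that overlaps Hspa1a and whose reads cannot be told from it. Next came Fos (0.503, range 0.402 to 0.629), Nr4a1 (0.457), Jun (0.454), Fosb (0.436), Egr1 (0.424) and Junb (0.412), which are transcription factors of the immediate-early response. Junos (0.410), antisense to Jun, and Ppp1r15a (0.366), which directs dephosphorylation of eIF2 alpha, were also among the 10 most alike. On the same scale Hsp90aa1 took place 10 and Hspa8 place 11 of all genes, Dnajb1 place 18, Hspb1 place 19 and Hsph1 place 21, while Bag3 was at 76, Hspd1 at 99 and Hspe1 at 965. The median gene had a mean rho of -0.01. Over the cells of fibroblast clusters alone, Hspa1a had a mean rho of 0.135 with Hspb1, 0.352 with Hsp90aa1, 0.317 with Hspa8 and 0.267 with Dnajb1.

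Other chaperone genes were read from fixed lists. In cluster 10 small heat shock proteins gave 3 calls, all higher, of 5 tested, with a median log2 fold change of 3.80 beside the -0.93 of all genes, of which 6.38% were called. These were Hspb6 (log2 fold change 5.85, adjusted p = 9.4e-05), Hspb2 (5.52, adjusted p = 0.0032) and Cryab (2.35, adjusted p = 0.023), chaperones known from muscle. Hspb1 is of the same family and has the value given above. The HSP70 family and partners had 1 of 12 called, Hspa12b, a distant HSP70 relative, lower (-5.53, adjusted p = 0.016), with a median of -0.66, a share near that of all genes. None was called of 21 DnaJ genes (median -0.37), of 13 HSP90 genes and co-chaperones (-0.03), of 5 BAG genes (-1.06), of 8 TRiC/CCT subunits (-0.05) or of 4 heat shock factor genes (-0.70).

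Stress genes outside the chaperones differed in direction in cluster 10, where 366 of all genes were called higher and 661 lower, 6.38% in all. Of 14 genes of the unfolded protein response of the endoplasmic reticulum 4 were called, all lower, with a median of -2.63, among them Pdia6 (-2.97, adjusted p = 0.012), Xbp1 (-2.78, adjusted p = 0.023) and Sdf2l1 (-6.05, adjusted p = 0.046). Of 8 other heat-inducible genes 1 was called, Serpinh1, a collagen chaperone, lower (-2.28, adjusted p = 0.014), a share not far from that of all genes. Of 17 immediate-early genes 5 were called, all higher, led by Socs3 (2.32, adjusted p = 0.0033), Atf3 (2.32, adjusted p = 0.0020) and Zfp36 (2.16, adjusted p = 6.6e-05). Each named gene kept its direction under the other scalings, by median of ratios or centred on the median gene, but Hspa12b, Serpinh1, Sdf2l1, Pdia6 and Xbp1 were called under only 1 of these scalings.

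In cluster 5 no gene of the 8 chaperone and heat-inducible lists and none of the unfolded protein response was called. Immediate-early genes gave 3 calls of 17, all lower, beside 0.935% of all genes called, namely Nr4a1 (-4.28, adjusted p = 0.0089), Dusp1 (-3.15, adjusted p = 0.020) and Egr1 (-1.38, adjusted p = 0.028), with a median of -2.24 beside -0.77 for all genes. Dusp1 and Egr1 were called under only 1 of the other scalings. In the 9 other clusters 1 of 45 pairs of small heat shock protein and cluster was called, Hspb8 in cluster 7, higher (1.03, adjusted p = 0.0496), although the median of that list in cluster 7 was -2.52 beside -0.41 for all genes. Of the pairs of 17 immediate-early genes and 9 clusters 9 were called, 3 higher and 6 lower, and of all pairs of gene and cluster 0.165% were. The 6 lower ones were in cluster 7, where Junb (-1.06, adjusted p = 0.0076), Fos and Nr4a1 were among them, the latter pair without a call under the other scalings. The 3 higher ones were Nr4a1 in cluster 4 and Fos and Nr4a1 in cluster 11.

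Markers of cell types other than mural cells and fibroblasts were scarce in cluster 10, cluster 5 and the other fibroblast clusters. Summed reads per cell were 5.68, 2.95 and 2.81 for 8 endothelial markers, 0.776, 1.70 and 0.564 for 9 immune markers, 2.18, 4.55 and 1.31 for 10 urothelial markers, and 1.31, 1.26 and 3.11 for 6 Schwann cell markers. Lines ranged from 1.42 to 24.3 for the endothelial markers in cluster 10, with the highest in 3 C57BL6 cells, and from 0.00 to 14.9 for the urothelial markers in cluster 5. None of these markers was called in cluster 10 or 5, and their part in the chaperone levels was not tested. The immune markers Cd52, Cd3e and Cd79a were at 0 in clusters 10 and 5, Fcer1g, Sox10 and Cdh19 in cluster 5 and Upk1b in cluster 10.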

How the data were processed

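The authors sorted cells into plates with lysis buffer and ERCC spike-ins, sequenced single reads, trimmed adapters, mapped to GRCm38 with TopHat2 and counted reads per gene with featureCounts. Neither an annotation release nor a strand setting is given in the sources used here. The deposited values are raw counts of 46517 genes and 92 ERCC rows in 1479 cells. Members and gene lists were chosen with earlier results of these data known.

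Gene models came from GENCODE M21, which held 46005 of the gene identifiers. Counts were summed per line and class (at least 3 cells in both), and tested with edgeR 4.0.16 in R 4.3.3 (TMM, filterByExpr, quasi-likelihood test, line as a block), with calls at p under 0.05 after Benjamini-Hochberg adjustment over all genes. That lines are independent is an assumption, since combined reporter strains were also used. Cluster labels were made from the same values, so tests say only how far a difference repeats over lines. DESeq2 1.42.0 and limma 3.58.1, other scalings, filters, sums and lines left out were alternatives. Levels came from cells thinned to 50000 reads, with another seed and depth tried. The fits were tested on simulated data. Named genes were the 10 members, up to 3 called genes per list and direction, and the 10 genes most correlated with Hspa1a plus Hspa1b, except genes that are not reported here. Python 3.11.15 with numpy 2.4.6, scipy 1.17.1 and pandas 2.3.3 made the tables and matplotlib 3.10.9 the plots.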

Additional observations from a re-analysis of the deposited data

Results flagged for a closer look

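The Acta2GFP line stood apart from the other 4 lines for a pair of genes, by the gap to the nearest line as a share of the whole range (Dixon's 95% limit for 5 values). Dnajb1 averaged 48.008 reads per cell of 50000 in Acta2GFP against 8.27 to 18.8 in the other lines, a gap of 0.736 of the range. Hsph1 averaged 5.01 reads there against 1.08 to 2.16, a gap of 0.726. Of 30 sets of 4 or 5 lines examined 2 stood out, and chance alone gives about 1 in 20.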

How the results depend on the processing

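None of the 10 genes was called in the comparisons as reported, and alternatives brought some calls, given here beside the share of all genes called. For cluster 10 the count was 1 with median-of-ratios scaling (9.3% of all genes) and without the replicate block of the line (11.0%), Hspb1 in both, 2 with the median gene at 0 (5.25%) and with sums per plate and line (17.2%), Hspb1 and Hsp90aa1, 2 with limma-voom (10.6%), Hspb1 and Hspa1a, and 0 to 1 with a line left out (3.02 to 6.8%). For cluster 5 it was 1, always Hspa1a, with DESeq2 (8.83%), no filter on low counts (0.907%), sums per plate and line (3.82%), sums of thinned cells (2.45%) and depth-matched cells (2.11%), and 0 to 1 with a line left out (0.758 to 1.51%). For the 9 other clusters it was 11 of 90 with the median gene at 0 (1.27% of all pairs), 3 with limma-voom (1.01%), and 1 with DESeq2 (3.78%), no filter (0.136%), sums per plate and line (1.62%), and sums of thinned cells (0.301%), while without the block it was 0 (0.318%). The depth-matched cells were chosen after seeing the data. The cause of these differences was not tested. Hspa1a in cluster 10 turned to -0.42 and -0.56 when Cspg4dsRED or PdgfrbGFP was left out (range over lines -0.56 to 1.07), and Hspa8 in cluster 5 to 0.0064 with the median gene at 0, a turn that this centring, which moves every gene alike, brings by itself. Levels over lines were 0.659 to 1.15 times the value given in 90 alternatives, and 89 stayed within 1 SD. The exception was Hspe1, at 3.03 reads with depth-matched cells against 4.20. Not fitted were depth-matched cells for clusters 4, 9 and 11, sums per plate and line for cluster 4, and lines left out for clusters 4 and 9, which had 2 lines. Lines number 2 to 5 and cluster 10 held 3 C57BL6 cells, so a missing call does not show equal levels.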
